A study of Homo sapiens with 9 samples.

Results

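The mitosis and G2/M genes described here are 43 protein-coding genes, chosen by gene symbol, whose transcripts peak as cells prepare for and pass through division. All 43 were among the 20637 genes of the deposited expression table, and all 43 passed the filter on low values, so that they make up 43 of 12569 genes tested. Although earlier results of these data were known, the expression values were not used to choose them. They were measured by polyA RNA sequencing in the established human leukaemia line HL-60, an acute myeloid line of promyelocytic type, and in 2 sublines that resist a chemotherapy drug. HRD cells resist daunorubicin (DNR), an anthracycline that traps topoisomerase II on DNA, and were grown with 30 nM DNR. HRA cells resist cytarabine (Ara-C), a nucleoside analogue that is built into DNA, and were grown with 100 nM Ara-C. Parental HL-60 cells, for which no drug is named, were the cells both were set against. Each group had 3 biological replicates, and all cultures were kept for at most 10 passages. There was 1 resistant line per drug, and whether each came from a clone or a pool is not stated, so resistance to a drug, growth in that drug and the history of 1 line cannot be told apart. P-values measure the spread between these libraries.

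Entry into mitosis is driven by the kinase CDK1 bound to cyclin B, which WEE1 holds inactive and CDC25 phosphatases switch on. PLK1 and the Aurora kinases then build the spindle, the spindle checkpoint (BUB1, BUB1B, BUB3, MAD2L1, TTK) waits until every kinetochore holds microtubules, and CDC20 with the anaphase-promoting complex destroys cyclin B and securin (PTTG1) so that separase (ESPL1) can part the sister chromatids. Most of these genes are transcribed late in the cell cycle, by FOXM1 and B-MYB with the MuvB complex, through a cell cycle homology region near the start site, often beside CCAAT boxes that NF-Y binds. The level of such transcripts in a culture rises with the share of cells in G2 and mitosis. In bulk RNA a smaller share of such cells and less RNA per cell cannot be told apart.

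The shared promoter structure of the genes is shown by 6 of them, 4 that were higher in HRD than in parental cells (PLK1, CCNB1, CCNB2, CDC20) and 2 that were lower (ESPL1, KIF11). Each line gives 300 bases of the RefSeq sequence, from 250 bases before the start of the gene to 50 after it, read 5′ to 3′ on the gene's strand, which is the plus strand for all 6. Capitals mark the cell cycle homology letters TTTGAA or TTCGAA and the letters CCAAT, on either strand. The windows lie, in GRCh38.p14, at chr16:23678639-23678938 (PLK1), chr5:69166900-69167199 (CCNB1), chr15:59104896-59105195 (CCNB2), chr1:43358731-43359030 (CDC20), chr12:53268049-53268348 (ESPL1) and chr10:92592880-92593179 (KIF11).
PLK1: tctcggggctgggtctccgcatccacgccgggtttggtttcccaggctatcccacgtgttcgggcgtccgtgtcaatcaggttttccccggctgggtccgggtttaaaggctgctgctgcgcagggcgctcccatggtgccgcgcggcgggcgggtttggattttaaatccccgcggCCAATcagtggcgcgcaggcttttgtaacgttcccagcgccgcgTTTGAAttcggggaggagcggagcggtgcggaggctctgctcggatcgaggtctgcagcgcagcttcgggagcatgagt
CCNB1: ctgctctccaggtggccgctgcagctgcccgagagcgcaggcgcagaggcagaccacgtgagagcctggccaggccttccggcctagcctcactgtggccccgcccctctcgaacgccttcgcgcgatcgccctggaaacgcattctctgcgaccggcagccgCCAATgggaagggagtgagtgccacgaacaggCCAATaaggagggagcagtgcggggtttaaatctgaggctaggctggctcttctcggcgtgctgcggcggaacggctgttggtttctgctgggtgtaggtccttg
CCNB2: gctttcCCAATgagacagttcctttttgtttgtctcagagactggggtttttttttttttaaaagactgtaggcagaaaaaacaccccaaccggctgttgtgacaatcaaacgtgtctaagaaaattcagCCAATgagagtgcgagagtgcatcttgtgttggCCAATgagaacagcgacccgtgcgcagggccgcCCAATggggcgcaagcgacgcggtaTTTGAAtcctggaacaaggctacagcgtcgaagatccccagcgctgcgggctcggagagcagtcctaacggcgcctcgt
CDC20: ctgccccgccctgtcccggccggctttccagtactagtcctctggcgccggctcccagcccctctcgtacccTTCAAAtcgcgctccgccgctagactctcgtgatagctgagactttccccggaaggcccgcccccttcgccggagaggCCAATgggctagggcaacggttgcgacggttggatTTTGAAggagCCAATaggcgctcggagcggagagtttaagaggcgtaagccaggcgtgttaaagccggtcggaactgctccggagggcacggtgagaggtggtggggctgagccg
ESPL1: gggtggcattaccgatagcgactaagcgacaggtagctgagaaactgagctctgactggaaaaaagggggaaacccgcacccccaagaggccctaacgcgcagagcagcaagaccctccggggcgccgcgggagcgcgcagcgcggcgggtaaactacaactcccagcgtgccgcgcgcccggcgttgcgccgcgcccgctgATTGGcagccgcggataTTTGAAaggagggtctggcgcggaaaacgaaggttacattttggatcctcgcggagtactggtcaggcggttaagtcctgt
KIF11: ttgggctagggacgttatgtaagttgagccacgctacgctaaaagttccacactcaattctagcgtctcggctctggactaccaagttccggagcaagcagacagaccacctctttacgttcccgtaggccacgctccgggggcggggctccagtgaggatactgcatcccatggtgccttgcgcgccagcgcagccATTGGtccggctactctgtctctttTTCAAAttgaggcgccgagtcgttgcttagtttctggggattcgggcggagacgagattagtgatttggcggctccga
In PLK1, CCNB2, ESPL1 and KIF11 the first base of the homology letters stands between -28 and -31 from the start. CDC20 holds them at -178 and -65, and the CCNB1 window holds CCAAT at 2 places and no homology letters. RefSeq windows of this kind were at hand for 35 of the 43 genes. TTTGAA or TTCGAA was found in 27 of these 35 genes (77.1%), against 19.5% of 27305 genes with a window. CCAAT was found in 29 of 35 (82.9%), against 39.7% of all genes, and both were found in 23 of 35 (65.7%), against 7.85%. Members that moved in opposite directions had both kinds of letters. Of the 7 members that were higher in HRD than in parental cells, 5 held the homology letters and 7 held CCAAT. Of the 4 with a window that were lower, 3 held the homology letters and 4 held CCAAT. A match to these letters describes the sequence and does not show that a factor binds there.

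The libraries held 22300023 to 66563328 reads in HRD, 25225828 to 47537926 in HRA and 20822709 to 58534264 in parental cells, and the lowest member in any library still had 239 reads. MPO, the myeloperoxidase of promyelocytes, was high in all 9 libraries, with values between 199686 and 314199, while the T-cell and erythroid markers measured were too low to be tested. The promyelocytic marker ELANE was at or near 0 in every library. Of the 8 other promyelocytic markers, by limma, CEBPA (0.63), SPI1 (0.51) and CD33 (0.3) rose and CTSG (-1.39) and PRTN3 (-1.64) fell in HRA over parental, and CEBPA (-0.42) and CTSG (-0.69) fell in HRD over parental. Among markers of other cells, MMP9 of neutrophils, at 0.0 to 78.3, rose in HRD over parental by 3.85, and CD79A of B cells, at 1.51 to 40.6, fell there by 1.6. The part of these marker changes in the members' values was not tested. The libraries numbered 2 stood apart from their groups in CDKN1A, which encodes the cell cycle inhibitor p21: its normalized read counts were 26.3, 122 and 21.4 in HRD replicates 1, 2 and 3, 17.5, 70.3 and 15.8 in HRA, and 2.81, 54.0 and 3.0 in parental cells. In the members, HRA replicate 2 was the lowest of its group for 29 of 43 genes, HRD replicate 1 was the highest of its group for 30 and HRD replicate 3 the lowest for 27, while parental replicate 3 was the highest for 22. HRD replicate 1 was also the deepest library and parental replicate 3 the shallowest, and the part of depth in these orders was not tested.

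As a whole the genes took up a similar share of the reads in HRD and parental cells and a smaller one in HRA cells. They held 0.61%, 0.544% and 0.557% of reads in HRD libraries, 0.51%, 0.465% and 0.52% in HRA libraries and 0.544%, 0.56% and 0.618% in parental libraries. All 3 HRA values lie below every HRD and parental value, and the HRD and parental values overlap. The mean log2 level over the 43 genes was 11.8 ± 0.095 in HRD, 11.613 ± 0.063 in HRA and 11.763 ± 0.054 in parental cells (SD, n = 3 each). Behind these means, single genes moved both ways in HRD over parental, while in HRA over parental 38 of 43 were below 0. The plot of each gene in each library shows them on a common scale.

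**Figure D1:**
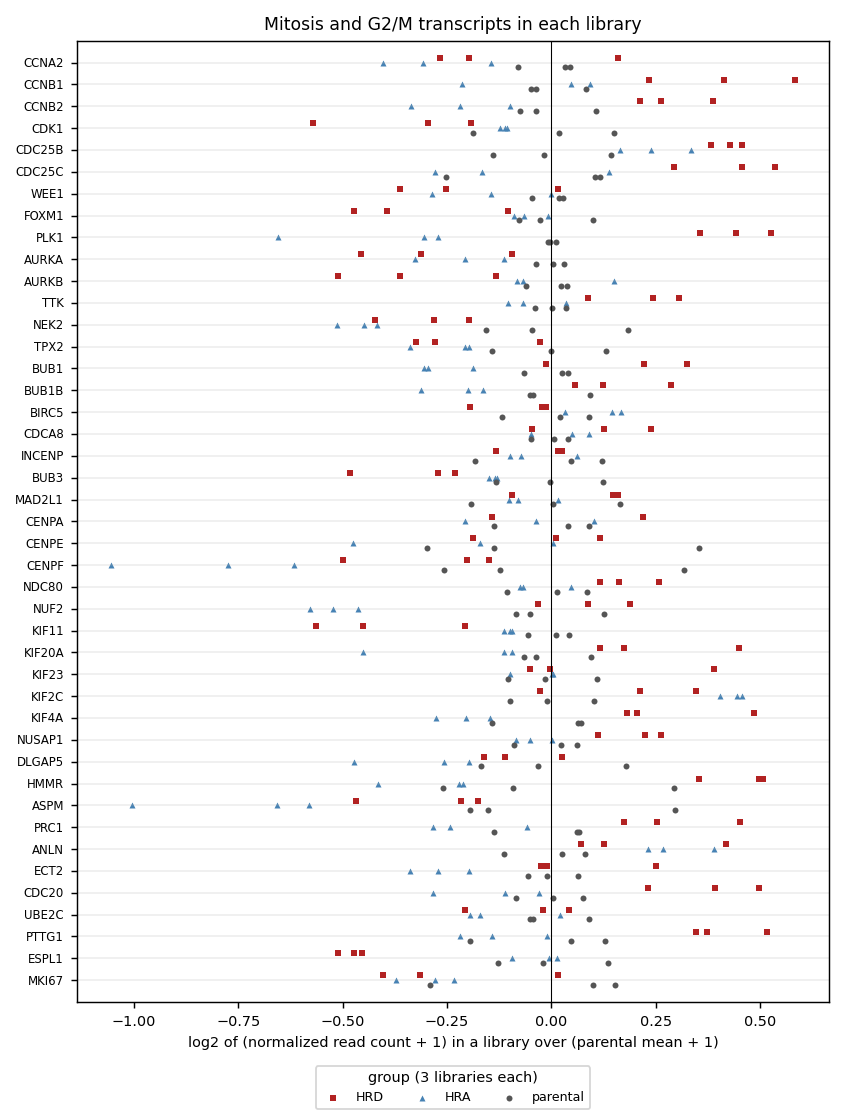
Each row is 1 of the 43 genes, ordered by role, and each point is 1 library; the horizontal axis is log2 of the normalized read count plus 1 over the parental mean plus 1. HRD points (red squares) lie right of HRA points (blue triangles) for PLK1, HMMR, NUF2 and PTTG1 and left of them for ESPL1, and CENPF and ASPM have the HRA points farthest to the left.

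HRA cells against parental cells show a small, mostly downward shift of these genes. On the log2 scale the change was below 0 for 38 of 43 members, with a median of -0.13 over the members and -0.01 over all tested genes. By limma with Benjamini-Hochberg adjustment over all tested genes, 5 members fell: the kinetochore genes CENPF and NUF2, the spindle pole gene ASPM, and the kinases NEK2 and PLK1. These are 11.6% of the members, against a background of 6.10% of tested genes that fell. The kinesin KIF2C rose, 2.33% of the members, against 9.13% of tested genes that rose. Leaving out 1 library gave 1 to 2 higher and 4 to 8 lower members, the 2 arising without parental replicate 3 or HRD replicate 1 and the 8 without HRD replicate 1. These calls did not use the pairing of HRA and parental libraries by replicate number. With that number as a block 1 member rose and 6 fell, CCNA2 (cyclin A2) being added at -0.28 (limma adjusted p = 0.0376). Its adjusted p ran from 0.0346 to 0.481 over all settings. Of all tested genes 1572 rose and 1202 fell with the block, against 1148 and 767 without it.

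In HRD cells against parental cells some members were called higher and some lower, at shares not far from those of all tested genes. The cyclins CCNB1 and CCNB2, the phosphatase CDC25B, PLK1, the spindle gene HMMR, CDC20 and PTTG1 rose, 7 members or 16.3%, against 10.7% of all tested genes. CDK1, FOXM1, AURKB, BUB3, KIF11 and ESPL1 fell, 6 members or 14.0%, against 12.0% of all tested genes. The median change was 0.08 over the members and 0.01 over all tested genes, and 24 of 43 members were above 0. Leaving out 1 library gave 4 to 10 higher and 2 to 8 lower members, the 4 without parental replicate 1 or 2, the 10 without HRD replicate 3, and the 2 without parental replicate 2 or HRD replicate 3, with 3 lower ones without parental replicate 1 or HRA replicate 1 or 3. Of the 13 calls 8 were lost without some library, and 5 held without each library in turn (CDC25B, ESPL1, KIF11, PLK1 and PTTG1).

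HRD cells against HRA cells, the comparison of the resistant lines, had the most changes. Of the 43 members 18 were higher in HRD, 41.9% against 13.9% of all tested genes, and 3 were lower, 6.98% against 16.2%. The median was 0.18 over the members and 0.00 over all tested genes, with 32 of 43 members above 0. The 18 are PLK1, BUB1, BUB1B, TTK, CCNB1, CCNB2, CDC25C, CDC20, PTTG1, CENPF, NUF2, KIF4A, KIF20A, PRC1, NUSAP1, HMMR, ASPM and ECT2, and the 3 are AURKB, KIF11 and ESPL1. Quantile normalization gave 18 higher and 7 lower members, beside 2037 and 2023 of all tested genes. Leaving out 1 library gave 12 to 18 higher and 1 to 4 lower members, the 1 without any HRA replicate or HRD replicate 3, and 12 of 21 calls held without each library in turn. The HRA and HRD comparisons share the parental libraries, and HRD against HRA shares its libraries with both, so their values are set side by side below and not counted as separate support.

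**Figure D2:**
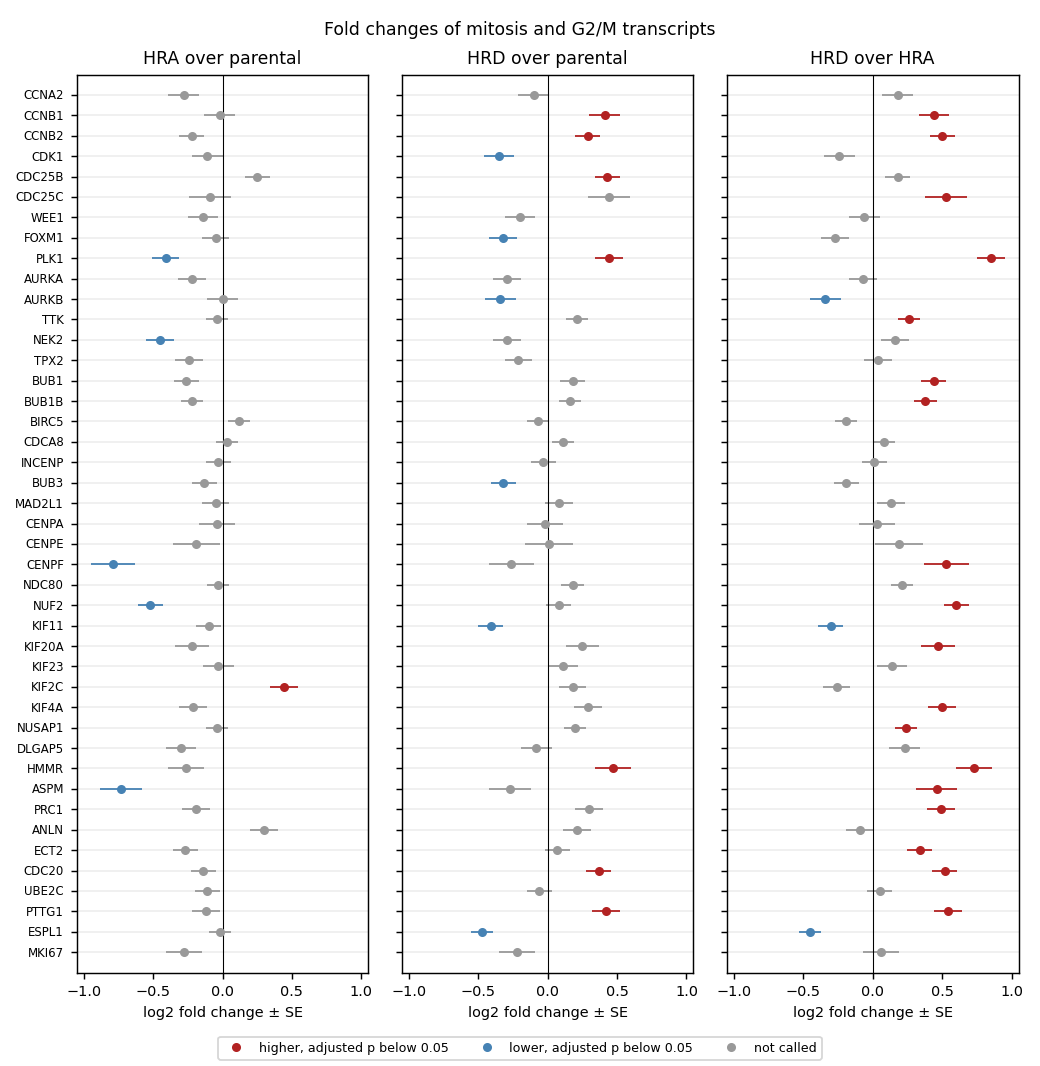
Points are log2 fold changes of the 43 genes in HRA over parental, HRD over parental and HRD over HRA cells, with bars of 1 SE from the limma fit; red and blue mark genes called higher or lower and grey those not called. PLK1 is on the left in HRA over parental (-0.41), on the right in HRD over parental (0.44) and farthest right in HRD over HRA (0.85).

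Of the 8 genes of the cyclin B and CDK1 switch, CCNB1, CCNB2 and CDC25B rose (37.5%, against 10.7% of all tested genes) and CDK1 and FOXM1 fell (2 of 8, against 12.0%) in HRD over parental, and CCNB1, CCNB2 and CDC25C were higher in HRD than in HRA (37.5%, against 13.9%). CCNB1, the main mitotic cyclin, had normalized read counts of 6986, 6212 and 5477 in HRD, 4816, 4015 and 4972 in HRA, and 4505, 4542 and 4937 in parental libraries. Every HRD library lies above every other one, and CCNB1 rose in HRD over parental by 0.41 ± 0.11 on the log2 scale (SE; limma adjusted p = 0.0176) and over HRA by 0.44 ± 0.11 (limma adjusted p = 0.011). CCNB2, the cyclin B of the Golgi, had 2572, 2904 and 2665 in HRD, 2073, 1760 and 1909 in HRA, and 2165, 2109 and 2391 in parental libraries. It rose by 0.29 ± 0.09 in HRD over parental (limma adjusted p = 0.0371) and by 0.5 ± 0.09 over HRA (limma adjusted p = 0.0018). CDK1 had 8229, 7655 and 6325 in HRD, 8709, 8730 and 8634 in HRA, and 9520, 10425 and 8255 in parental libraries. The highest HRD library stays just under the lowest parental one, and CDK1 fell in HRD over parental by 0.35 on the log2 scale (SE 0.11, limma adjusted p = 0.0411). The 3 HRA values of CDK1 differ by less than 100, the narrowest spread of any member in any group (coefficient of variation 0.577%).

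The phosphatases that free CDK1 from its inhibition are CDC25B and CDC25C. CDC25B had 1891, 1991 and 1953 in HRD, 1831, 1625 and 1712 in HRA, and 1316, 1434 and 1602 in parental libraries. Both resistant lines lie above the parental cells without overlap, but only HRD passed, at 0.43 ± 0.09 (limma adjusted p = 0.00601), while HRA stood at 0.25 ± 0.09 (limma adjusted p = 0.0824). CDC25C, with 405, 479 and 453 in HRD, 272, 363 and 294 in HRA, and 277, 355 and 358 in parental libraries, was higher in HRD than in HRA by 0.53 ± 0.15 (limma adjusted p = 0.0206). Its gene overlaps FAM53C on the opposite strand over 6421 bases, FAM53C had 17136 reads in the 9 libraries against 3479 for CDC25C, and whether counting used strand is not given, so its values are uncertain. FOXM1, the transcription factor of G2/M genes, had 3024, 2473 and 2341 in HRD, 3053, 3106 and 3231 in HRA, and 3188, 3481 and 3079 in parental libraries, and fell in HRD over parental by 0.32 (SE 0.1, limma adjusted p = 0.0362). By limma over all 9 libraries without a block, cyclin A2 (CCNA2) and the inhibitory kinase WEE1 passed in none of the 3 comparisons. With only the 2 groups compared CCNA2 passed in HRA over parental (limma adjusted p = 0.0439), as it did without HRD replicate 1 (0.0346). Without HRD replicate 1, WEE1 passed in HRD over parental (limma adjusted p = 0.0392). At an unadjusted p under 0.05, 3 of the 8 genes of this switch differed in HRA over parental, beside 3929 of 12569 tested genes. There edgeR and DESeq2 called 0 of the 8, beside 1924 and 2366 of all tested genes. FOXM1 overlaps RHNO1 and ITFG2, and CCNA2 overlaps EXOSC9, each on the opposite strand.

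Several of these calls ended when 1 library was left out, in some cases an HRA library that is not part of the comparison. CCNB1 in HRD over parental was no longer called when parental replicate 1 (adjusted p = 0.0525), parental replicate 2 (0.0518) or HRD replicate 1 (0.0507) was left out of the limma fit. CCNB2 there lost it without parental replicate 1 or 2, HRA replicate 3, or HRD replicate 2 or 3, at adjusted p of 0.0577 to 0.133. The calls of CDK1 (0.0564 to 0.144) and FOXM1 (0.0515 to 0.12) each ended without any one of 7 libraries: parental replicates 1 and 2, the 3 HRA replicates, and HRD replicates 2 and 3. CDC25C in HRD over HRA lost its call without HRA replicate 1 or 3 or HRD replicate 2 or 3 (0.0543 to 0.0913). CDC25B kept its call throughout these, at 0.0233 or less.

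Of 9 mitotic kinases and activators, 1 rose (PLK1) and 1 fell (AURKB) in HRD over parental, 11.1% each way and near the 10.7% and 12.0% of all tested genes. In HRA over parental 2 fell (PLK1 and NEK2; 22.2%, against 6.10%), and in HRD over HRA 4 were higher (PLK1, BUB1, BUB1B and TTK; 44.4%, against 13.9%) and 1 lower (AURKB; 11.1%, against 16.2%). PLK1, which drives centrosome maturation and mitotic entry, had normalized read counts of 4114, 3885 and 3658 in HRD, 2367, 1817 and 2314 in HRA, and 2852, 2883 and 2842 in parental libraries. The 3 groups do not overlap. PLK1 rose in HRD over parental by 0.44 ± 0.1 (limma adjusted p = 0.00936) and in HRD over HRA by 0.85 ± 0.1 (limma adjusted p = 0.000157), a 1.8-fold difference, and fell in HRA over parental by 0.41 (SE 0.1, limma adjusted p = 0.02). The last call ended when parental replicate 2 was left out (adjusted p = 0.0556) and when HRA replicate 2 was (0.0701), and both HRD calls held without each library in turn. The parental values of PLK1 are close to each other, with a coefficient of variation of 0.756%.

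The Aurora kinases did not follow PLK1. AURKA, the spindle pole kinase, had 4843, 4168 and 3770 in HRD, 4480, 4122 and 4781 in HRA, and 5041, 5284 and 5190 in parental libraries. All resistant-line values lie below the parental ones, at -0.29 ± 0.1 in HRD over parental (limma adjusted p = 0.0525) and -0.22 ± 0.1 in HRA over parental (limma adjusted p = 0.153), and neither passed. Under other settings AURKA passed in HRD over parental, by DESeq2 (adjusted p = 0.0455) and by limma with the replicate number as a block (0.0475). It also passed there by limma after quantile normalization (0.0182) and without HRD replicate 1 (0.0103). AURKB, the kinase of the chromosomal passenger complex, had 1103, 1434 and 1224 in HRD, 1501, 1744 and 1485 in HRA, and 1599, 1507 and 1614 in parental libraries. It fell in HRD over parental by 0.34 (SE 0.11, limma adjusted p = 0.0428) and in HRD over HRA by 0.34 (SE 0.11, limma adjusted p = 0.0351). The first call ended without any one of 7 libraries, all but HRA replicate 2 and HRD replicate 2 (adjusted p 0.0574 to 0.113), and the second without any HRA library or HRD replicate 1 or 3 (0.055 to 0.134). Its partners BIRC5 (survivin), CDCA8 (borealin) and INCENP passed in none of the 3 comparisons, with log2 changes from -0.19 to 0.12. For the 4 genes of the complex, 1, 2 and 0 differed at an unadjusted p under 0.05 in HRD over parental, HRD over HRA and HRA over parental. Of all 12569 tested genes 4409, 5283 and 3929 did so. Both edgeR and DESeq2 called AURKB in HRD over parental and HRD over HRA, and 0 genes of the complex in HRA over parental.

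NEK2, a kinase that splits the centrosomes, had 1084, 1148 and 982 in HRD, 923, 986 and 965 in HRA, and 1182, 1275 and 1496 in parental libraries. It fell in HRA over parental by 0.45 (SE 0.1, limma adjusted p = 0.0144), a call lost without HRA replicate 1 (adjusted p = 0.0679). TPX2, which activates Aurora A at the spindle, passed in none of the comparisons, with log2 changes of -0.24, -0.21 and 0.04 in HRA over parental, HRD over parental and HRD over HRA. MKI67, the Ki-67 antigen used to mark dividing cells, had 14181, 11292 and 10617 in HRD, 10839, 11566 and 11943 in HRA, and 11481, 15588 and 15045 in parental libraries. The groups overlap, and MKI67 did not pass in any of the 3 comparisons (limma adjusted p 0.17 to 0.759).

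In the spindle checkpoint BUB1, BUB1B and TTK were higher in HRD than in HRA, while BUB3 was lower in HRD than in parental cells. BUB1, which recruits the checkpoint proteins to kinetochores, had 6157, 5741 and 4874 in HRD, 4321, 3984 and 4007 in HRA, and 4699, 5003 and 5056 in parental libraries. BUB1 was higher in HRD than in HRA by 0.44 ± 0.09 (limma adjusted p = 0.00459). BUB1B, which encodes BUBR1, had 4044, 3445 and 3612 in HRD, 2960, 2668 and 2886 in HRA, and 3214, 3197 and 3534 in parental libraries, and was higher in HRD than in HRA by 0.38 ± 0.08 (limma adjusted p = 0.00665). TTK, the kinase MPS1 that starts the checkpoint, had 4878, 4670 and 4193 in HRD, 4044, 3669 and 3765 in HRA, and 3838, 3952 and 4044 in parental libraries, a difference of 0.26 ± 0.08 between HRD and HRA (limma adjusted p = 0.0296). For these 3 genes, each HRD library lies above each HRA library. BUB3, the partner of BUB1 and BUBR1 at the kinetochore, had 8385, 8618 and 7244 in HRD, 9205, 9242 and 9119 in HRA, and 11023, 10090 and 9234 in parental libraries. It fell in HRD over parental by 0.32 (SE 0.09, limma adjusted p = 0.0244). MAD2L1, which encodes the checkpoint effector MAD2, passed in none, at -0.05, 0.08 and 0.13. The BUB3 call was lost without parental replicate 1 or 2 or HRD replicate 3 (adjusted p 0.0605 to 0.0851), and the TTK call without HRA replicate 2 or 3 or HRD replicate 1 or 2 (0.0724 to 0.106).

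At the centromere and kinetochore, CENPF and NUF2 fell in HRA while NDC80, the partner of NUF2, was called in none of the 3 comparisons. CENPF, a large kinetochore and nuclear matrix protein, had 9723, 7630 and 9370 in HRD, 6300, 5187 and 7027 in HRA, and 9019, 9888 and 13425 in parental libraries. It fell in HRA over parental by 0.79 (SE 0.16, limma adjusted p = 0.00684), the largest change of any member from parental cells, to 0.577-fold. CENPF was higher in HRD than in HRA by 0.53 ± 0.16 (limma adjusted p = 0.0253), a call lost without HRA replicate 1 or 2 or HRD replicate 1 or 3 (0.0614 to 0.0975). NUF2, a subunit of the NDC80 complex that grips microtubules, had 2647, 2838 and 2437 in HRD, 1734, 1669 and 1806 in HRA, and 2406, 2350 and 2717 in parental libraries. It fell in HRA over parental by 0.52 (SE 0.09, limma adjusted p = 0.00301) and was higher in HRD than in HRA by 0.6 ± 0.09 (limma adjusted p = 0.000545), and both calls held without each library in turn. NDC80 had 5876, 5498 and 5330 in HRD, 4693, 4664 and 5082 in HRA, and 4570, 4965 and 5214 in parental libraries, with changes of -0.03 in HRA over parental and 0.18 in HRD over parental. CENPA, the histone of centromeres, and CENPE, the kinetochore motor, passed in none of the 3 comparisons. CENPA shares bases with SLC35F6 on the same strand, and CENPE had the widest parental spread of any member (coefficient of variation 24.5%).

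The kinesins differed from one another. KIF2C, which encodes MCAK, a motor that takes microtubules apart, had 6748, 6149 and 5211 in HRD, 7028, 7279 and 7225 in HRA, and 4959, 5698 and 5267 in parental libraries. It rose in HRA over parental by 0.44 ± 0.1 (limma adjusted p = 0.0126), in 3 of 3 libraries, and was at 0.0499 or less without any single library. KIF11, the motor Eg5 that pushes spindle poles apart, had 6150, 5192 and 4803 in HRD, 6619, 6560 and 6645 in HRA, and 6829, 7305 and 7152 in parental libraries. It fell in HRD over parental by 0.41 (SE 0.09, limma adjusted p = 0.00808) and in HRD over HRA by 0.3 (SE 0.09, limma adjusted p = 0.0263), the second call being lost without any HRA library or HRD replicate 2 or 3 (0.0658 to 0.0867).

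KIF4A and KIF20A, kinesins of the central spindle, were higher in HRD than in HRA. KIF4A had 3897, 3157 and 3209 in HRD, 2415, 2300 and 2515 in HRA, and 2521, 2908 and 2923 in parental libraries, a difference between HRD and HRA of 0.5 ± 0.1 (limma adjusted p = 0.00346). KIF20A had 1944, 1607 and 1543 in HRD, 1316, 1042 and 1334 in HRA, and 1360, 1521 and 1389 in parental libraries, a difference between HRD and HRA of 0.47 ± 0.12 (limma adjusted p = 0.0135), which was lost without HRA replicate 2 (0.0543). In KIF4A and KIF20A every HRD library is above every parental one, but neither passed in HRD over parental, at adjusted p of 0.0515 and 0.163 by limma. Under other settings KIF4A passed there, by edgeR (adjusted p = 0.0421), by DESeq2 (0.0327) and by limma after quantile normalization (0.0363). KIF23, a motor of the midbody, passed in none, with log2 changes between -0.03 and 0.14. KIF4A overlaps PDZD11 and KIF20A overlaps BRD8 and CDC23 on the opposite strand.

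Of 6 spindle genes 4 were higher in HRD than in HRA (ASPM, HMMR, NUSAP1 and PRC1; 66.7%, against 13.9% of all tested genes), and of 5 cytokinesis genes 3 were (ECT2, KIF20A and PRC1; 60.0%). HMMR, a spindle assembly and hyaluronan-binding protein, had 4037, 4061 and 3652 in HRD, 2471, 2143 and 2455 in HRA, and 2389, 2684 and 3506 in parental libraries. It rose in HRD over parental by 0.47 ± 0.13 (limma adjusted p = 0.0204) and in HRD over HRA by 0.73 ± 0.13 (limma adjusted p = 0.00161), or 1.66-fold. The first call was lost without parental replicate 1 or 2 or HRD replicate 1 or 2 (0.0524 to 0.069). ASPM, which organises spindle poles, had 4719, 3855 and 4592 in HRD, 3383, 2656 and 3565 in HRA, and 4657, 4798 and 6541 in parental libraries. It fell in HRA over parental by 0.73 (SE 0.15, limma adjusted p = 0.00745) and was higher in HRD than in HRA by 0.46 ± 0.15 (limma adjusted p = 0.0352), the second call being lost without HRA replicate 1 or 2 or HRD replicate 1 or 3 (0.063 to 0.132). HRA is the low group for ASPM, and HRD and parental libraries overlap.

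PRC1, which bundles the microtubules of the central spindle, had 3977, 3465 and 3276 in HRD, 2386, 2455 and 2792 in HRA, and 3044, 3032 and 2641 in parental libraries, and was higher in HRD than in HRA by 0.49 ± 0.1 (limma adjusted p = 0.00409). In HRD over parental PRC1 stood at 0.3 ± 0.1 (limma adjusted p = 0.0515), and it passed there by edgeR (0.0454) and DESeq2 (0.0335). NUSAP1, a spindle microtubule protein, had 7982, 7767 and 7190 in HRD, 6422, 6665 and 6272 in HRA, and 6253, 6944 and 6763 in parental libraries, and was higher in HRD than in HRA by 0.24 ± 0.08 (limma adjusted p = 0.0308). ECT2, the exchange factor that switches on RhoA at the cleavage plane, had 3017, 2493 and 2518 in HRD, 2104, 2006 and 2212 in HRA, and 2521, 2651 and 2442 in parental libraries, and was higher in HRD than in HRA by 0.34 ± 0.09 (limma adjusted p = 0.0156). In PRC1, NUSAP1 and ECT2 each HRD library exceeds each HRA library. The ECT2 call was lost without HRA replicate 1 (0.0538) or 2 (0.0616), and the NUSAP1 call without any HRA library or HRD replicate 1 or 2 (0.0582 to 0.106). DLGAP5, a spindle protein that stabilises kinetochore fibres, and ANLN, the cytokinetic ring protein anillin, passed in none of the 3 comparisons. ANLN was at 0.3 ± 0.1 in HRA over parental (limma adjusted p = 0.0688), the second highest change of the members there.

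At the step from metaphase to anaphase, the activator CDC20 and securin were higher in HRD and separase was lower. CDC20, which brings the anaphase-promoting complex to its targets, had 6609, 6150 and 5498 in HRD, 4589, 3845 and 4337 in HRA, and 4694, 4940 and 4420 in parental libraries. It rose in HRD over parental by 0.37 ± 0.09 (limma adjusted p = 0.0145; 0.0511 without parental replicate 3) and in HRD over HRA by 0.52 ± 0.09 (limma adjusted p = 0.0022). PTTG1, or securin, the inhibitor of separase, had 5247, 5912 and 5344 in HRD, 3740, 3546 and 4097 in HRA, and 3609, 4267 and 4513 in parental libraries. It rose in HRD over parental by 0.42 ± 0.1 (limma adjusted p = 0.0105) and in HRD over HRA by 0.54 ± 0.1 (limma adjusted p = 0.00222). PTTG1 has near-identical copies elsewhere in the genome, and how reads shared with them were counted is not given. ESPL1, or separase, the protease that cuts cohesin, had 2144, 2061 and 2116 in HRD, 2750, 2925 and 2962 in HRA, and 2685, 2897 and 3225 in parental libraries. It fell in HRD over parental by 0.47 (SE 0.08, limma adjusted p = 0.00199) and in HRD over HRA by 0.45 (SE 0.08, limma adjusted p = 0.00221), to about the same level in its 3 libraries (coefficient of variation 2.0%). Both PTTG1 calls and both ESPL1 calls held without each library in turn. UBE2C, the ubiquitin-conjugating enzyme of the complex, passed in none, with log2 changes of -0.11, -0.06 and 0.05.

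Ratios of partner transcripts within a library do not depend on the scaling between libraries. The pairs were chosen after their values had been seen, so the ratios are a description, without a test, and they are read counts not divided by gene length. PTTG1 over ESPL1, the inhibitor over its protease, was 2.45, 2.87 and 2.53 in HRD, 1.36, 1.21 and 1.38 in HRA, and 1.34, 1.47 and 1.4 in parental libraries. CCNB1 over CDK1, the cyclin over its kinase, was 0.849, 0.811 and 0.866 in HRD, 0.553, 0.46 and 0.576 in HRA, and 0.473, 0.436 and 0.598 in parental libraries. In both pairs the HRD libraries lie apart from the other 6, while HRA and parental libraries overlap. PLK1 over AURKA was 0.917 ± 0.0618 in HRD, 0.484 ± 0.0438 in HRA and 0.553 ± 0.0111 in parental cells (SD, n = 3 each). BUB1 over BUB3 was 0.691 ± 0.0375 in HRD, 0.447 ± 0.0201 in HRA and 0.49 ± 0.0608 in parental cells. NUF2 over NDC80, subunits of 1 complex, was 0.475 ± 0.0361 in HRD, 0.361 ± 0.00751 in HRA and 0.507 ± 0.0294 in parental cells, with HRA the group apart. CDC25B over WEE1, the activator of CDK1 over its inhibitor, was 0.859 ± 0.133 in HRD, 0.726 ± 0.0641 in HRA and 0.553 ± 0.0527 in parental cells, and here the HRD and HRA libraries overlap.

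**Figure D3:**
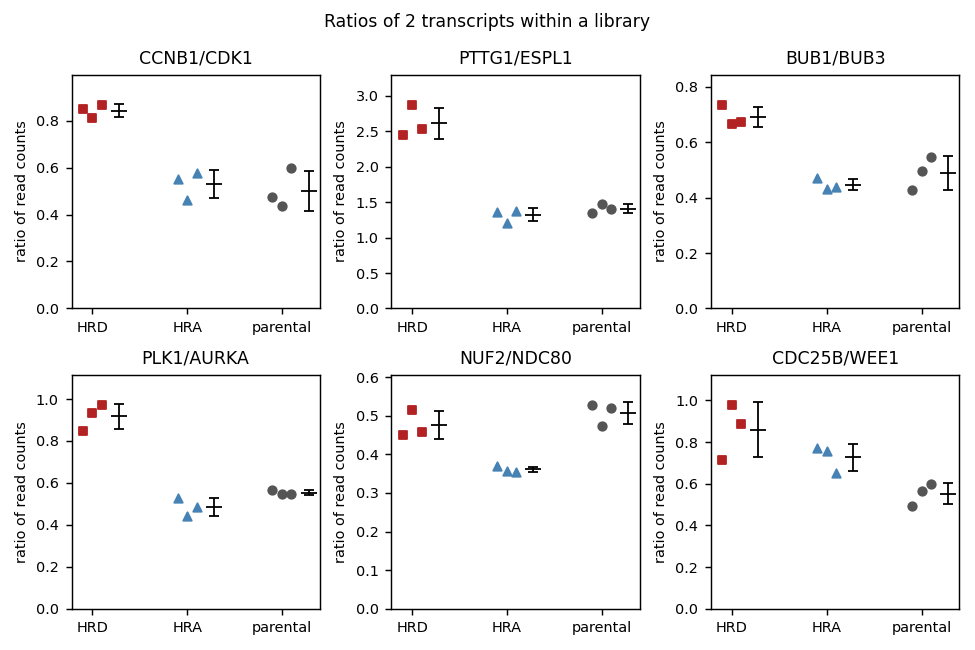
Each panel gives the ratio of the read counts of 2 genes in each of the 9 libraries, with the mean and SD of each group of 3 as a bar beside its points; the vertical axes start at 0. HRD stands above HRA and parental cells in CCNB1/CDK1, PTTG1/ESPL1, BUB1/BUB3 and PLK1/AURKA, and HRA stands below the others in NUF2/NDC80.

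The members were also set beside the genes around them. Of the 43 genes 7 are on chromosome 1, 5 each on chromosomes 5 and 15, and 4 each on chromosomes 10 and 20. One part of chromosome 1, between the genes DUSP23 and PGBD2, was delimited in earlier results of these data because its genes are low in HRA. The values that follow for it in HRA over parental restate that choice and are a description: its 332 tested protein-coding genes outside the set had a median log2 change of -0.44, and 185 of them fell (55.7%), beside 6.10% of all tested genes. It holds CENPF, ASPM, NUF2 and NEK2, which are 4 of the 5 members that fell in HRA. The other 757 tested genes of chromosome 1 had a median of 0.12, and KIF2C, CDC20 and CDCA8 lie among them. Within it, 23 of 332 genes had a lower value than CENPF (-0.79) and 33 a lower one than ASPM (-0.73), while NUF2 (-0.52) and NEK2 (-0.45) were nearer its middle, with 126 and 160 genes below them. PLK1, the fifth member that fell in HRA, is on chromosome 16. In HRD over HRA, which uses the same HRA libraries, 130 of the 332 genes were higher (39.2%, against 13.9% of all tested genes). Their median there was 0.27, and CENPF, NUF2 and ASPM are among the members called higher in that comparison.

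**Figure D4:**
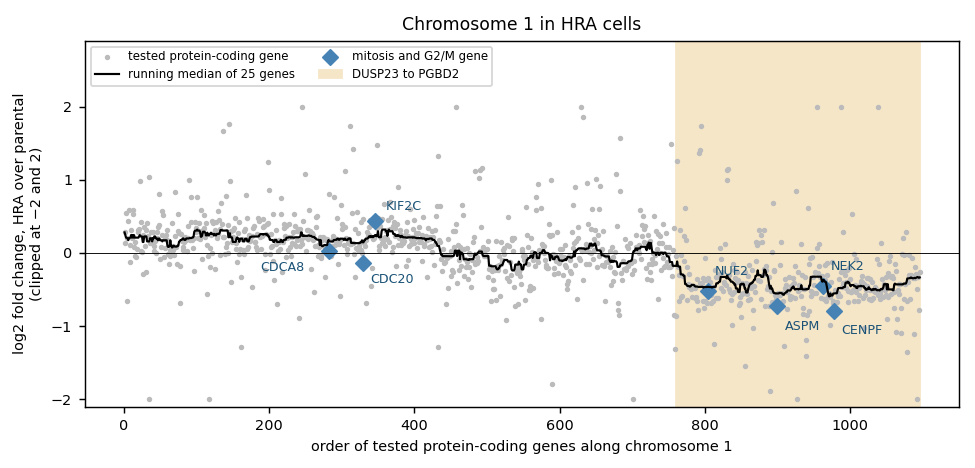
Each grey point is a tested protein-coding gene of chromosome 1 in chromosomal order, with its log2 fold change in HRA over parental cells on the vertical axis, clipped at -2 and 2; the line is a running median of 25 genes, diamonds are the 7 members, and the shaded stretch runs from DUSP23 to PGBD2. CENPF and ASPM lie below the lowered line, NUF2 and NEK2 lie near it, and KIF2C lies above it in the other part of the chromosome.

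The same reading was made for every member, setting it beside the median of up to 10 tested protein-coding genes on each side that are not members. In HRD over parental, the neighbours of the 7 members that rose had medians from 0.04 to 0.23, and the members exceeded them by 0.15 to 0.37. Of the 6 that fell, KIF11 (-0.41), CDK1 (-0.35) and BUB3 (-0.32) are on chromosome 10, with neighbours at -0.39, -0.24 and -0.36, and MKI67, the other member there, stood at -0.22 with neighbours at -0.26. FOXM1 (-0.32) had neighbours at -0.32. AURKB (-0.34) went against its neighbours, at 0.22, and ESPL1 (-0.47) was below its own, at -0.23. In HRA over parental PLK1 (-0.41) lay 0.31 below its neighbours, at -0.1, and KIF2C (0.44) lay 0.2 above its own, at 0.24. For the 18 members that were higher in HRD than in HRA, the neighbours had medians from -0.04 to 0.52, above 0 for 17 of them. These 18 members exceeded their neighbours by 0.03 to 0.66, with a median excess of 0.3. PLK1 had the largest excess of these and NUSAP1 the smallest. Adjacent members such as HMMR and PTTG1, or CDC25C and KIF20A, share many of their neighbours. Copy number was not measured, and its part in these values was not tested.

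**Figure D5:**
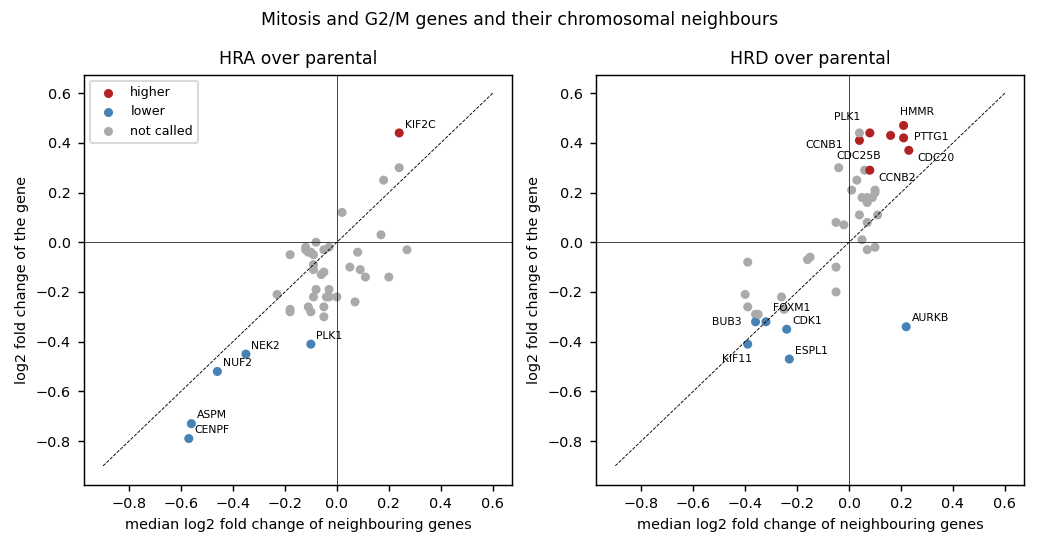
Each point is 1 of the 43 genes, with its log2 fold change on the vertical axis against the median log2 fold change of up to 20 neighbouring tested genes on the horizontal axis, for HRA over parental (left) and HRD over parental (right); the dashed line marks equal values and colours mark the calls. KIF11, BUB3 and FOXM1 lie close to the line in HRD over parental, the 7 members that rose lie above it, and AURKB is far below it.

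Genes of mitosis outside the set were called about as often as all tested genes in HRD over HRA. Over lists of kinetochore, cohesion, anaphase-promoting complex, condensin, spindle, cytokinesis and G2/M regulator genes as 1 pool, 129 genes outside the set were tested. In HRD over HRA 18 of them were higher (14.0%, against 13.9% of all tested genes) and 25 were lower (19.4%, against 16.2%), both near the background, with a median of -0.03. In HRD over parental 3 rose (2.33%, against 10.7% of all tested genes) and 18 fell (14.0%, against 12.0%). In HRA over parental 5 rose (3.88%, against 9.13%) and 10 fell (7.75%, against 6.10%). The falls are near the background and the rises below it.

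TOP2A, which encodes topoisomerase II alpha, the enzyme that anthracyclines act on, had 17892, 15305 and 14926 in HRD, 25971, 24054 and 25229 in HRA, and 27577, 30142 and 34136 in parental libraries. It fell in HRD over parental by 0.93 (SE 0.1, limma adjusted p = 0.000105). KIF18B, a motor that controls astral microtubules, had 917, 984 and 1018 in HRD, 1889, 1768 and 1909 in HRA, and 2246, 1861 and 2059 in parental libraries, and fell in HRD over parental by 1.08 (SE 0.09, limma adjusted p = 1.29e-05). The HRD libraries of both genes lie well apart from the other 6. TUBG1, the gamma tubulin of centrosomes, also fell in HRD over parental, by 0.78 (SE 0.11, limma adjusted p = 0.000413), as did ANAPC5, a subunit of the anaphase-promoting complex, by 0.42 (SE 0.08, limma adjusted p = 0.00359). TOP2A, KIF18B and TUBG1 are all on chromosome 17, and the part of their position in these falls was not tested.

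FAM64A, a mitotic gene also called PIMREG, was the largest rise of this pool, with 167, 262 and 170 in HRD, 81.7, 74.4 and 60.9 in HRA, and 93.2, 106 and 109 in parental libraries, at 0.92 ± 0.21 in HRD over parental (limma adjusted p = 0.00898) and 1.43 ± 0.21 in HRD over HRA (limma adjusted p = 0.000606). In HRA over parental the largest falls were in PSRC1, a spindle protein, by 0.72 (SE 0.13, limma adjusted p = 0.00425), and in KIF14, a cytokinesis kinesin, by 0.67 (SE 0.13, limma adjusted p = 0.00662). CENPL, a centromere protein, fell there by 0.61 (SE 0.1, limma adjusted p = 0.00239). All 3 are on chromosome 1, KIF14 and CENPL inside the stretch from DUSP23 to PGBD2 and PSRC1 outside it. RACGAP1, a partner of KIF23 and ECT2 in cytokinesis, fell in HRD over parental by 0.35 (SE 0.1, limma adjusted p = 0.0287), a call lost without any parental library or HRD replicate 2 or 3 (0.0531 to 0.0951). TACC3, a spindle protein, was higher in HRD than in HRA by 0.35 ± 0.1 (limma adjusted p = 0.0237), a call lost without HRA replicate 2 (0.0972) or HRD replicate 2 (0.0639) or 3 (0.0627). FBXO5, an inhibitor of the anaphase-promoting complex, changed by 0.0, -0.02 and -0.02 in HRA over parental, HRD over parental and HRD over HRA, and FZR1, its activator in late mitosis, by 0.36, 0.5 and 0.14. By limma over all 9 libraries neither was called. FZR1 passed in HRD over parental by DESeq2 (0.51, adjusted p = 0.0492) and by limma without parental replicate 1 (0.65, 0.0478) or HRD replicate 1 (0.73, 0.0102).

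Genes of G1/S and S phase, by contrast, were often lower in HRD than in HRA. Of 31 such genes 16 were lower in HRD than in HRA (51.6%, against 16.2% of all tested genes) with a median of -0.37, beside a median of 0.18 for the 43 mitosis and G2/M genes. Against parental cells, HRA had 9 of the 31 higher (29.0%, against 9.13%), with a median of 0.21, and HRD had 5 lower (16.1%, against 12.0%), with a median of -0.03. CCNE1, the cyclin of G1/S, had 919, 789 and 821 in HRD, 1331, 1516 and 1405 in HRA, and 830, 887 and 691 in parental libraries, and rose in HRA over parental by 0.83 ± 0.11 (limma adjusted p = 0.000929). E2F2, a transcription factor of S phase genes, rose in HRA over parental by 0.98 ± 0.12 (limma adjusted p = 0.000487). CDC6, which loads the replicative helicase, had 2741, 2871 and 2465 in HRD, 5224, 5720 and 5430 in HRA, and 4597, 4933 and 4444 in parental libraries, and fell in HRD over parental by 0.79 (SE 0.08, limma adjusted p = 5.94e-05). HRA is the high group for CCNE1, without overlap, and HRD is the low group for CDC6.

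Among the regulators that switch the mitotic genes on and off, MYBL2, which encodes B-MYB, had 3341, 4176 and 3444 in HRD, 5083, 6106 and 5167 in HRA, and 4731, 4738 and 3919 in parental libraries. It was lower in HRD than in HRA by 0.58 on the log2 scale (-0.58 ± 0.11, limma adjusted p = 0.00343), and the 3 HRA libraries are the highest. LIN9, a MuvB subunit on chromosome 1, had 1090, 978 and 1006 in HRD, 859, 877 and 859 in HRA, and 1237, 1319 and 1314 in parental libraries. It fell in HRA over parental by 0.58 (SE 0.08, limma adjusted p = 0.00114) and in HRD over parental by 0.33 (SE 0.08, limma adjusted p = 0.0129; 0.0524 without HRD replicate 2). E2F8, a repressor of the cell cycle programme, rose in HRA over parental by 0.64 ± 0.17 (limma adjusted p = 0.0275), and the call ended when HRA replicate 2 (0.108), HRA replicate 3 (0.0747) or parental replicate 3 (0.0607) was left out. Of the 16 genes of the MuvB and DREAM list, 3 rose (18.8%, against 9.13% of all tested genes) and 1 fell (6.25%, against 6.10%) in HRA over parental. In HRD over parental 2 rose (12.5%, against 10.7%) and 3 fell (18.8%, against 12.0%). In HRD over HRA 3 were higher (18.8%, against 13.9%) and 6 were lower (37.5%, against 16.2%): E2F7, E2F8, LIN37, MYBL2, RBBP4 and TFDP2. CDKN1A, which is in this list, was not called in any of the 3 comparisons by limma over all 9 libraries without a block. Its libraries numbered 2 were the high ones in every group. With the replicate number as a block, it passed by limma in HRA over parental, where the numbers were taken as pairs (1.58, adjusted p = 0.0192), and in HRD over parental (2.16, 0.0031). With replicates 1 and 3 alone, CDKN1A was at 2.18 in HRA (limma adjusted p = 0.0261) and 2.66 in HRD (0.00521). Without parental replicate 2 it was at 2.85 in HRA (0.0382) and 3.44 in HRD (0.0113). The use of replicates 1 and 3 alone was chosen after these CDKN1A values had been seen. Both settings leave out the high parental library, so these values restate that choice and are a description.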

How the data were processed

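PolyA RNA was sequenced from TruSeq stranded libraries of 3 biological replicates each of HRD, HRA and parental HL-60 cells. The deposited values are read counts per gene divided by a size factor, a signal made by the authors: each was within 0.001 of a whole multiple of 1 step per library, and the counts were recovered from these steps. Per the submitters' processing notes the tools were DESeq2, HTSeq 0.11.1, Cufflinks 2.2.1, Picard, Bowtie2 2.3.5.1 and TopHat2 2.1.1, and the build hg19. What each tool did, which annotation was used and whether counting used strand is not given in the sources used here. Reads shared between overlapping genes or near-identical copies may therefore be split.

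Genes that reached 10 in 3 or more of the 9 libraries were tested with limma 3.58.1 (R 4.3.3, variance trend) on log2(value + 1), all groups in 1 fit, two-sided, with Benjamini-Hochberg adjustment over 12569 genes and calls at an adjusted p below 0.05. A fold change is on that scale. The procedure was tested on simulated data. The members, lists and rules were chosen with earlier results of these data known. Members called at least once, and 9 anchor genes, are given in every library; from each other list the called genes with the largest changes were eligible, and 8 genes always. Neighbours and chromosomes follow the gene order of GRCh38.p14, and overlaps follow GENCODE on GRCh38. The alternatives were a pseudocount of 10, no filter, the replicate number as a block, quantile normalization, only the 2 groups compared, each library left out, edgeR 4.0.16 and DESeq2 1.42.0 on the counts.

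Same-numbered HRA and parental libraries deviated together from their group means (correlations over genes of 0.217, 0.382 and 0.144 for numbers 1, 2 and 3), so the numbers were taken to pair them. The main fit of HRA over parental did not use this pairing, and its counts with the replicate number as a block are given beside it. For HRD and parental libraries the correlations were -0.0777, 0.257 and 0.289, and for HRD and HRA libraries -0.0287, 0.411 and 0.227, so those were not taken as pairs. Depth was 20822709 to 66563328 reads per library.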

Additional observations from a re-analysis of the deposited data

How the results depend on the processing

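No member's call reversed its direction under any setting. The number of members higher in HRA over parental was 2 under quantile normalization and 2 with only the 2 groups compared, which also gave 8 lower members. Among all tested genes the higher ones there were 1173 and 1285, and the lower ones with only the 2 groups were 894. In HRD over parental the lower members were 3 with no filter on low values and 2 with only the 2 groups compared, and in HRD over HRA they were 7 under quantile normalization. The lower ones of all tested genes in these 3 cases were 1370, 1091 and 2023. The cause was not tested. With the replicate number as a block, for the pairing of HRA and parental libraries, 1 member was higher and 6 lower. Among all tested genes 1572 were then higher and 1202 lower in HRA over parental. In HRD over parental the block gave 8 and 7 members, beside 1744 and 1895 of all tested genes. In HRD over HRA it gave 18 and 4 members, beside 2257 and 2416 of all tested genes. The block changed no other call of HRA over parental among the members than that of CCNA2. edgeR called 1 member higher and 5 lower in HRA over parental, 9 and 6 in HRD over parental and 18 and 3 in HRD over HRA. Among all tested genes it called 1181 and 743, 1372 and 1480, and 1761 and 2039. DESeq2 called 1 and 5, 10 and 8, and 18 and 3 members. Its calls among all tested genes were 1378 and 988, 1492 and 1652, and 1973 and 2132.

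Leaving out 1 library gave, among all tested genes, 561 to 1360 higher and 329 to 971 lower in HRA over parental, 873 to 1305 and 1133 to 1559 in HRD over parental, and 1055 to 1850 and 1324 to 2081 in HRD over HRA. In HRA over parental the counts were over 1.5 times smaller than the full ones, 1148 and 767, for higher genes without HRA replicate 1 (573), 2 (561) or 3 (763), and for lower genes without HRA replicate 1 (329), 2 (369) or 3 (465) or parental replicate 2 (430) or 3 (510). In HRD over parental this held for the higher genes without HRD replicate 2 (873), and in HRD over HRA for both counts without HRA replicate 1 (1055 and 1324). For the members it gave 1 to 2 higher and 4 to 8 lower, 4 to 10 and 2 to 8, and 12 to 18 and 1 to 4. A setting chosen after the libraries numbered 2 had been seen to stand apart in CDKN1A used replicates 1 and 3 alone, and so 6 libraries. It called 0 members higher and 3 lower in HRA over parental (466 and 220 of all genes), 1 and 2 in HRD over parental (703 and 712), and 8 and 1 in HRD over HRA (740 and 1035). All 40 of the called changes kept their direction, and none moved by more than 0.13 on the log2 scale. ASPM, CENPF and NUF2 stayed called in HRA over parental, AURKB, ESPL1 and PLK1 in HRD over parental, and CCNB2, CDC20, ESPL1, HMMR, KIF4A, NUF2, PLK1, PRC1 and PTTG1 in HRD over HRA.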

Other observations

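Among the 9754 tested genes outside the set with a mean of at least 100, those whose log2 values over the 9 libraries were most like the mean of the 43 members included SEC24B (Pearson's r = 0.971), UTP14C (0.967), USP14 (0.961) and FBXO18 (0.957). The libraries share their depth and their groups, and with this many genes searched over 9 libraries the values are a description only.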
